A study of Canis lupus familiaris with 33 samples.

Results

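The spleen list of methylated regions was set against the lists of 10 other beagle tissues on the 38 autosomes. All peaks of the 11 lists that shared at least 1 base were merged into 450791 union regions, and the spleen had a peak in 241426 of them (53.6%). Regions where the spleen stood apart were those with a peak only in the spleen list (2948), those with a peak in all 10 other lists and none in the spleen list (3765), and those with a peak in all 11 lists whose spleen fold lay outside the other 10 values and at least 1.5-fold above (4783) or below (6733) their median. Together these 4 classes held 18229 regions, 4.04% of the union.

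The series measured DNA methylation by MBD-seq in normal tissues of adult beagles: sheared DNA was captured on beads that carry a methyl-CpG-binding domain, the fragments released at the highest salt steps were sequenced, and an input library held DNA that was not captured. Each of the 11 tissues had 2 MBD libraries, 1 input library and 1 list of peaks, so no tissue had replicate values and no test of a difference between tissues could be made. The spleen MBD libraries were titled MBD_SP_679, from an animal labelled female and called animal A here, and MBD_SP_jj8, labelled male, and their input came from jj8. Cerebellum, cerebrum, liver and lung came from the same animals, each with an input library of its own from jj8; kidney and pancreas shared the MBD animals but had inputs from animal A. Colon and stomach came from animal A and jj82 with inputs from jj8. Mammary gland and ovary came from animal A and a further animal (titles MBD_MG_244 and MBD_OV_244), with inputs from animal A. The protocol named 3 dogs while the titles carried 4 identifiers, and jj8 was labelled female in its input libraries. All groups were of the beagle breed, and the labels gave no genotype and no treatment before the dogs were killed.

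Cytosine methylation in mammals sits mostly at CpG dinucleotides and differs between cell types at regulatory regions, where lower methylation often marks an active element of that cell type. The spleen is a secondary lymphoid organ and a blood filter: its white pulp is made of B and T lymphocytes, and its red pulp of venous sinuses with macrophages that clear aged red blood cells. A piece of whole spleen therefore holds many cell types, and in such bulk DNA fewer cells carrying a methylated allele and a lower methylation level per cell cannot be told apart. A list without a peak in a region shows only that none was deposited there, not that the DNA was unmethylated. Genes and sequences at these positions, and the marker genes that would check the tissue label, were not analysed here.

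The spleen list held 279427 autosomal peaks, the sixth highest number of the 11, against 251352 in colon to 353642 in ovary. They covered 152.0 Mb, between 139.8 Mb in pancreas and 210.2 Mb in ovary and eighth of the 11. The median peak was 306 bases wide, the shortest 182 and the longest 26261. The fold of a peak, the authors' own value for each peak in the list, had a median of 6.55 in the spleen, against 6.19 (lung) to 8.80 (stomach) in the other lists. Folds are therefore given below as deposited and, where tissues are compared, as the relative fold, which is the highest fold of a tissue in a region divided by the median of that tissue's autosomal list. The read depth behind the peaks is unknown, and Wilson intervals of shares are at 95% and cover counting error only.

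Of the regions with a spleen peak, 121528 (50.3%) had a peak in all 11 tissues and another 35941 (14.9%) in 10. Peaks that fewer tissues shared had lower folds in the spleen. The median relative spleen fold went from 0.631 where only the spleen had a peak, through 0.716 where 6 tissues had one and 0.95 where 10 did, to 1.48 where all 11 did. The median width of the merged region, which can only grow as lists are merged, went from 216 to 338, 425 and 798 bases over the same steps. Among all regions found in exactly 2 tissues the spleen was present in 9.79%, among those in 6 tissues in 50.2% and among those in 10 tissues in 90.5%. The mean over the 11 tissues, which the counting fixes, is 18.2%, 54.5% and 90.9%. For regions in 2 tissues, ovary (26979) and cerebellum (24530) raised that mean. The spleen's 4450 such regions lay between those of lung (3722) and liver (6250).

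In number, the spleen lay inside the range of the other tissues in every class. Regions with a peak only in the spleen were 0.654% of the union (Wilson interval 0.631% to 0.678%), sixth of the 11 tissues, where the other 10 ran from 418 regions in pancreas through a median of 2759 to 35015 in cerebellum. Without the ovary list the spleen's number was 4484. Regions without a peak only in the spleen were 0.835% of the union (0.809% to 0.862%), the third highest number, behind cerebellum (13152) and lung (4367) and above a median of 2540. Of the shared regions, 3.94% (3.83% to 4.05%) were called higher in the spleen and 5.54% (5.41% to 5.67%) lower. Both ranked seventh, against medians of 5641.5 and 6864.5 regions in the other tissues. The lower calls outnumbered the higher calls, which made up 41.5% of both. Lower calls were also the more numerous in 8 of the 10 other tissues, all but lung and mammary gland. This split moved with the peaks and lists used. With peaks under 218 bases, the longest of the 11 shortest peaks, left out of every list, 2727 regions were higher and 7414 lower (26.9% higher). The list medians were taken anew after this cut, which removed 12.2% of the spleen peaks, so the scaling of the folds changed too. With only the 6 lists whose shortest peak was under 200 bases, which also drops 5 tissues, 11087 were higher and 9863 lower (52.9% higher). At a needed difference of 2-fold, 20.7% were higher.

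**Figure D1:**
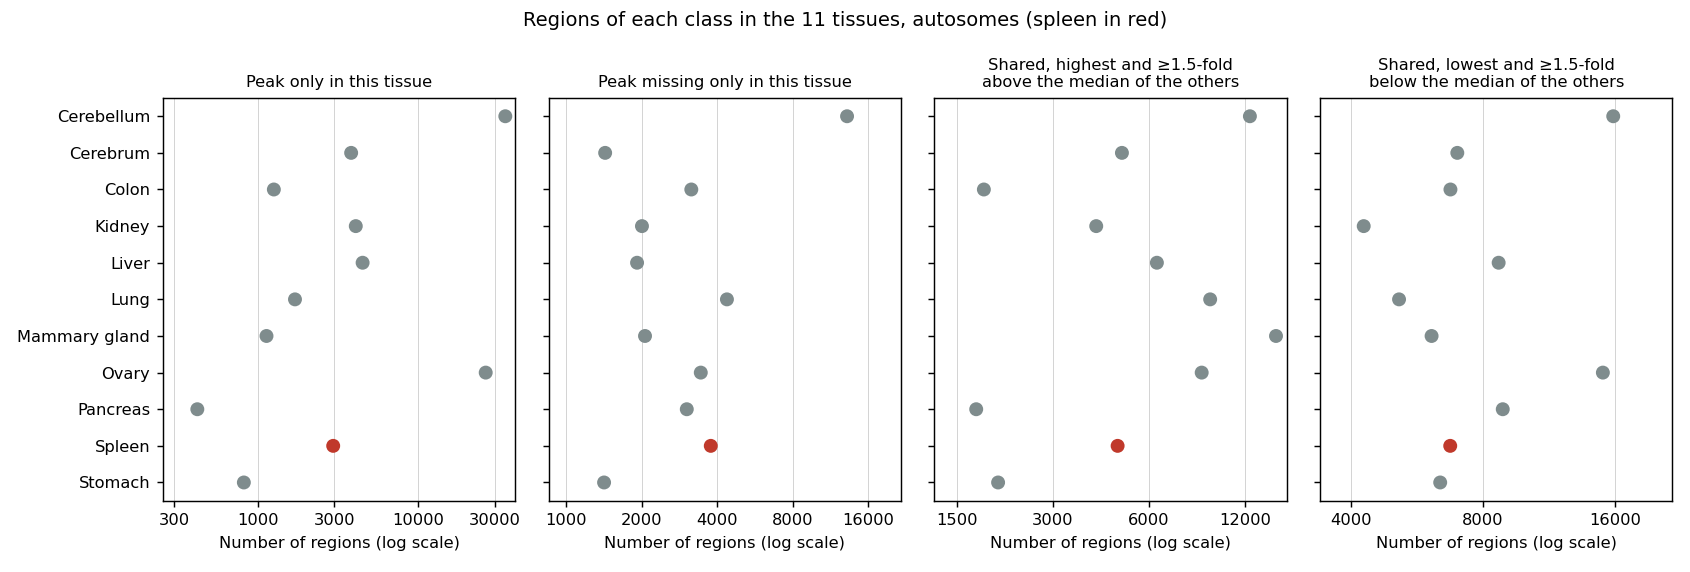
Number of autosomal regions of each class (log axis) in each of the 11 tissues, 1 point per tissue, with the spleen in red and each tissue set against the other 10 by the same rule. The spleen lies inside the range of the others in all 4 panels, at rank 3 for missing peaks (3765) and rank 6 for peaks found in 1 tissue (2948).

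Only cerebellum, cerebrum, liver and lung shared with the spleen both MBD animals and the animal of the input. Among these 5 lists alone, the spleen had 8687 regions of its own, rank 4 of the 5, between 5631 in lung and 61375 in cerebellum. It lacked 15217 regions that the other 4 had, second only to cerebellum (23127) and more than lung (13577), liver (6876) and cerebrum (4550). Of 150078 regions shared by the 5, 10645 were higher in the spleen and 16075 lower, ranks 4 and 3 of the 5. Missing regions outnumbered those found only in the spleen in this set as in all 11 lists, but not with equal list sizes (3422 against 3784), the strongest 50% of each list (1310 against 2547), the 6 lists whose shortest peak was under 200 bases (7638 against 8994) or without ovary (4170 against 4484).

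Regions with a peak in 1 list were short and weak in every tissue, with median widths of 197 (pancreas) to 273 bases (colon) and median relative folds of 0.520 (stomach) to 0.670 (ovary) in the other 10. In the spleen their widths ran from 182 to 837 bases with a median of 216 (quartiles 199 and 241), and the median fold was 4.13 with a median −log10 p-value of 8.44. Of the 2948, 87 (2.95%) had a fold above the spleen list's own median. The spleen list went down to 182 bases while 5 other lists began at 210 to 218 bases, and 1219 of the spleen regions (41.4%) were shorter than 210 bases, the shortest peak of any of those 5 lists. Under 218 bases were 51.7% of these regions, against 12.2% of all spleen peaks. With peaks under 218 bases left out of every list the class held 1781 regions. The regions lay a median of 1247.5 bases from the nearest region with a peak in another tissue, and 43.4% lay within 1000 bases of one. They made up 1.22% of all regions with a spleen peak, against 0.191% (pancreas) to 11.2% (cerebellum) for the same share elsewhere.

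The strongest of these peaks were all longer than 218 bases. The highest fold was 11.0 (relative fold 1.68) at chr14:39303983-39304355, a peak of 373 bases with a −log10 p-value of 41.7 and the next spleen region 299 bases away. Next came chr17:15440265-15440571 with a fold of 10.9 and chr36:6191610-6192041 with 10.5. Positions are in CanFam3.1, the dog genome build named in the submitters' processing notes. The other 7 of the leading 10 had folds of 8.68 to 9.76, and the 10 lay on 10 different chromosomes. In none of the 10 other lists did these intervals hold a peak, so no fold difference can be given. A typical member of the class was far weaker, as at chr12:17422769-17422954, where a peak of 186 bases had a fold of 4.13, the median.

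Where a region had a peak in just 1 tissue beside the spleen, that tissue was most often the ovary, which had the longest list. Ovary was the partner in 1470 of 4450 such regions (33.0%), cerebellum in 764 (17.2%) and liver in 704 (15.8%). As a share of each partner's own 2-tissue regions the order changed: the spleen was the partner in 18.0% of those of colon (279 of 1549), 11.3% of those of liver and 5.45% of those of ovary. Colon also led for absence. Of 5301 regions missing from the spleen and exactly 1 other tissue, colon was the other in 986 (18.6%), which were 17.5% of colon's own 5638. Cerebellum followed in number with 839 (15.8%), but these were 10.9% of its own, below the shares of mammary gland (12.6%), lung (12.5%), liver (12.4%), stomach (11.7%) and pancreas (11.2%). Cerebrum had the lowest such share, 8.87%.

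The 3765 regions that all tissues but the spleen had were merged from the peaks of 10 lists, so their widths are not comparable with those of regions from the spleen list alone. Their widths ran from 269 to 2160 bases with a median of 366, and the median of the other tissues' relative folds was 0.906 over the class, with 1074 regions (28.5%) above 1. A region with a spleen peak lay at a median distance of 2299 bases, and for 43 of the regions (1.14%) within 100 bases.

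In the 3 strongest of them every other tissue had a fold above its own list median while the spleen list had no peak. At chr18:25456655-25457551 (897 bases) the other folds ran from 9.53 in ovary through a median of 18.6 to 33.9 in pancreas. It was the 1 region of the leading 10 with a spleen peak within 100 bases, 84 bases from its edge. At chr5:60320122-60320936 they ran from 7.97 (ovary) through 18.4 to 22.3 (colon), with the nearest spleen region 1172 bases away. At chr18:52850629-52851718 they ran from 8.84 (ovary) through 16.8 to 21.1 (mammary gland). Chromosome 18 also held the widest of the leading 10, 1693 bases at chr18:55363440-55365132, with folds of 5.35 (cerebellum, below its list median) to 19.3 (kidney). The remaining 6 lay on chromosomes 1 (2 regions), 5, 9, 20 and 38 and had median folds of 12.8 to 16.5. Around the 10 regions the shared regions within 100 kb did not lean one way, with median log2 differences of -0.22 to 0.22, above 0 around 4 and below 0 around 6. The region at the median of the class, chr9:23188969-23189548, had folds of 3.83 in lung to 8.10 in cerebellum.

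**Figure D2:**
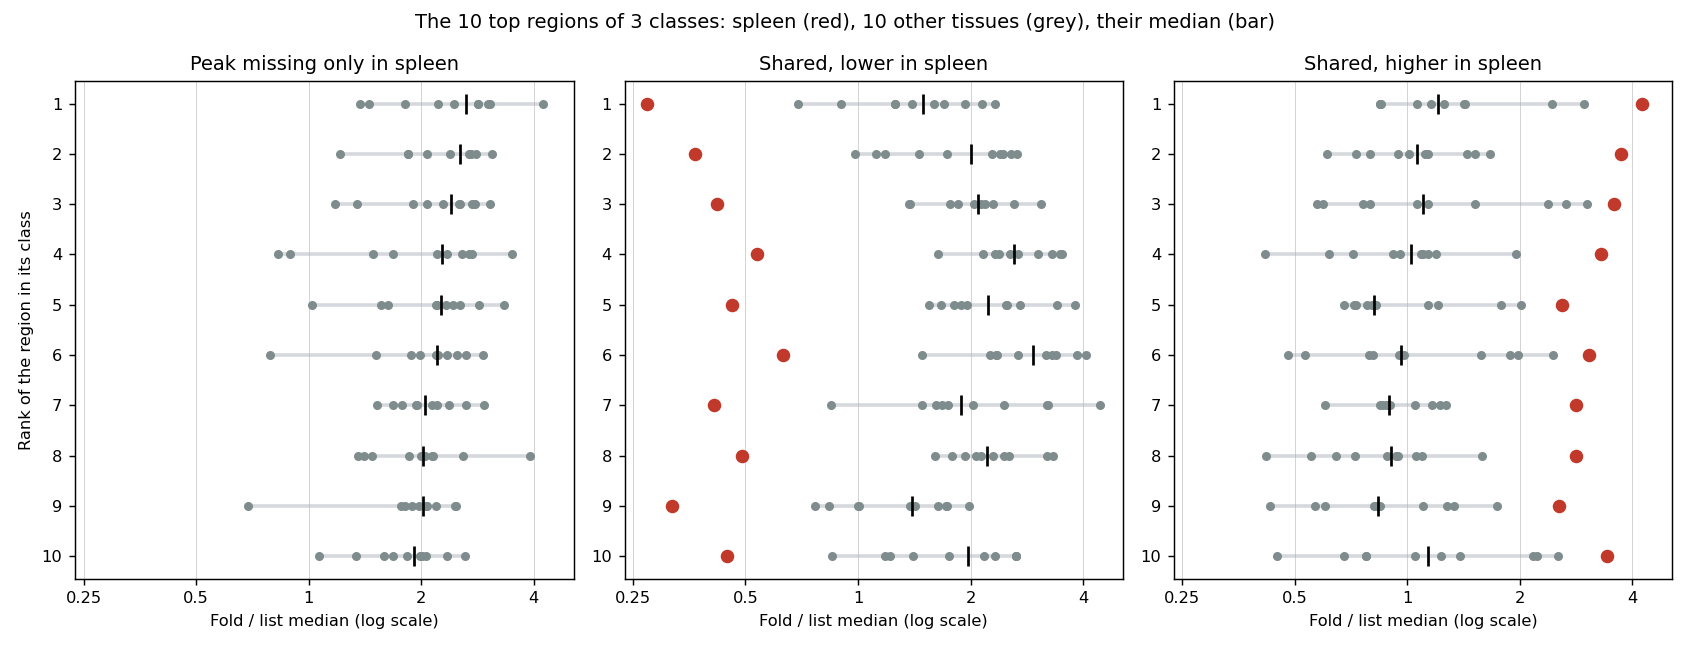
Relative fold (fold divided by the tissue's list median, log axis) in the 10 leading regions of 3 classes, ranked from top to bottom, with the spleen in red, the 10 other tissues as grey points on their range and their median as a bar. No red point is drawn in the left panel because the spleen had no peak there; in the other panels it lies outside the grey range, as the rule demands.

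In the 121528 shared regions the spleen mostly kept to the level of the other tissues. The log2 difference of its relative fold from the median of the other 10 had a median of 0.02 and an SD across regions of 0.44, against SDs of 0.40 (stomach) to 0.64 (cerebellum) for the same measure in the other tissues. From the 5th to the 95th percentile it ran from -0.77 to 0.66. The spleen lay above all 10 others in 9425 regions (7.76%) and below all 10 in 9562 (7.87%). Of these, 4642 above and 2829 below missed the 1.5-fold distance, and the regions on either side of that threshold differed by 1.50002-fold and 1.49996-fold among the high ones and by 1.50021-fold and 1.49996-fold among the low ones. A difference of at least 2-fold from the median was reached by 502 of the higher regions (10.5%) and by 1918 of the lower ones (28.5%).

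**Figure D3:**
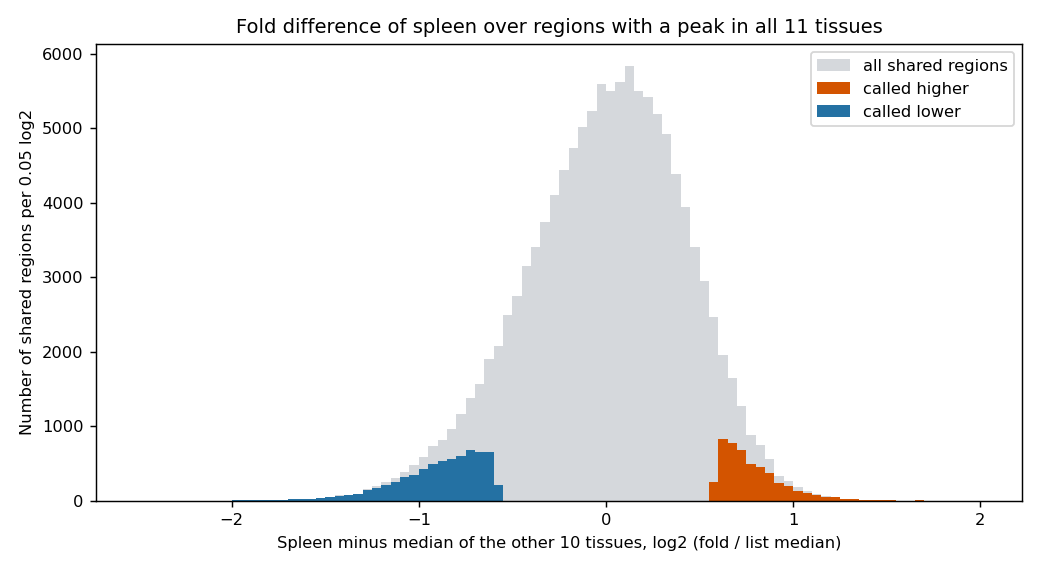
Number of shared regions (vertical axis) by the log2 difference of the spleen's relative fold from the median of the other 10 tissues, in steps of 0.05, with all 121528 shared regions in grey and the called ones in orange (4783 higher) and blue (6733 lower). The left tail is longer, down to -2.45 against 1.81 on the right.

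In the 6733 lower regions the spleen's fold, −log10 p-value and covered bases were all lower at the median. Its fold was above its list median in 1555 of them (23.1%), against 75.9% of all shared regions. In the lower regions the median relative fold was 0.718 in the spleen against 1.34 for the other tissues, and the spleen peaks there covered a median of 388 bases against 532.5. Their −log10 p-values, scaled by each list's median, differed by a median of -1.001 on the log2 scale, where all shared regions gave 0.12. For covered bases the median log2 difference was -0.32, against -0.10 over all shared regions. In the 4783 higher regions the spleen had a median relative fold of 2.61 against 1.51, and its −log10 p-values were higher by 0.93 on the log2 scale. Their peaks covered 605 bases against 580, a median log2 difference of 0.03. Fold and p-value come from the same reads of a peak, so they are not independent of the rule.

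The lower class held the larger single differences. At chr1:116995368-116996166 the spleen fold was 1.79 against 6.08 (stomach), a median of 9.82 and 16.7 (liver) in the others, which on the relative scale was 5.47-fold below their median. At chr12:10252876-10254026 it was 2.40 against 6.92 (lung), 14.1 and 20.0 (stomach), 5.42-fold below. At chr38:21495248-21496940 it was 2.75 against 9.84 (liver), 15.0 and 19.1 (lung), 4.98-fold below. In all 3 the spleen fold was below the lowest of the other tissues as deposited too, and the spleen peaks covered 305 to 403 bases of regions 799 to 1693 bases wide. The widest of the leading 10 was chr8:72488370-72490276, 1907 bases, where the spleen peaks covered 474 bases with a fold of 4.12 and the others a median of 1788 bases with a median fold of 20.6. The remaining 6 were 4.39-fold to 4.89-fold below the median, and the 10 lay on 10 chromosomes. The chromosome 38 region lay 98.0 kb from chr38:21396558-21397233, one of the 10 leading regions without a spleen peak (folds of 6.69 in ovary to 23.4 in colon). Shared regions within 100 kb of these 10 had median differences of -0.37 to 0.22, above 0 around 6 of the 10.

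Among the higher regions, chr24:42845080-42846153 led with a spleen fold of 27.7 against 5.28 (cerebrum), a median of 9.14 and 20.5 (mammary gland), 3.51-fold above the median on the relative scale. At chr27:36935976-36936467 the spleen fold was 24.4 against 4.01 (kidney), 7.07 and 12.4 (colon), also 3.51-fold. At both regions the spleen also had the highest fold as deposited. At chr18:1253287-1253763 it was 23.4 against 4.12 (liver), 8.32 and 24.7 (colon), so the deposited fold of colon was higher and the spleen led only after division by the list medians (3.57 against 3.03). At chr37:427191-427944 it was 21.5 against 2.82 (cerebellum), 7.57 and 12.1 (lung). The remaining 6 of the leading 10 were 3.01-fold to 3.18-fold above the median with spleen folds of 16.6 to 22.4, and again no chromosome held more than 1. One of these, chr9:48991254-48992684 with a fold of 17.0, lay at the edge of the 250 kb window with the most missing and lower regions, described below.

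Both shared classes were least common among the strongest and the widest regions and most common between the extremes. When the shared regions were divided into 5 groups of about equal number by the other tissues' relative fold, 1.95% of the strongest group were higher and 2.52% lower in the spleen. The middle group had 5.31% and 7.69%, and the weakest 3.27% and 4.95%. In the widest group by width, from 1647 bases up, 2.91% were higher and 3.37% lower, against 4.43% and 6.82% at 407 to 648 bases and 3.38% and 5.30% in the narrowest group.

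By chromosome, the shares of the 4 classes ran from 0.534 times (found only in the spleen, chromosome 29) to 1.55 times (higher, chromosome 38) their value over all autosomes. Regions found only in the spleen were 1.01% of the union on chromosome 9 (176 regions, interval 0.870% to 1.17%), 1.54 times the share over all autosomes, where liver reached 2.07 times for its own regions. On chromosome 7 they were 0.910% (141 regions), 1.39 times the overall share and the highest such ratio of the 11 tissues there. The lowest share was 0.349% on chromosome 29 (22 regions). Missing regions were most common on chromosome 12, with 1.22% (140 regions, 1.03% to 1.43%). That was 1.46 times the overall share, the highest ratio of the 11 tissues on that chromosome, with lung next at 1.27. They were least common on chromosome 37, with 0.504% (34 regions).

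Chromosome 38 stood at opposite ends in the 2 shared classes. It had the highest share of higher regions, 6.11% (82 regions, 4.95% to 7.52%), and the lowest share of lower regions, 4.02% (54 regions, 3.097% to 5.21%), which as a ratio of 0.726 to the overall share was the lowest of the 11 tissues there. Colon was close to it, with a ratio of 0.739. Pancreas had a slightly larger ratio than the spleen for higher regions on it, 1.57 against 1.55. Lower regions were most common on chromosome 5, with 6.31% (443 regions). The intervals excluded the overall share on 12 of 38 chromosomes for regions found only in the spleen, on 5 for missing, on 4 for higher and on 6 for lower regions.

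Median widths also differed by chromosome. They ran from 204 (chromosome 36) to 226 bases (chromosome 38) for regions found only in the spleen and from 336 (chromosome 32) to 457 (chromosome 5) for missing ones. For higher regions they ran from 435 (chromosome 32) to 1037 (chromosome 33), and for lower ones from 462.5 (chromosome 32) to 895 (chromosome 18).

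**Figure D4:**
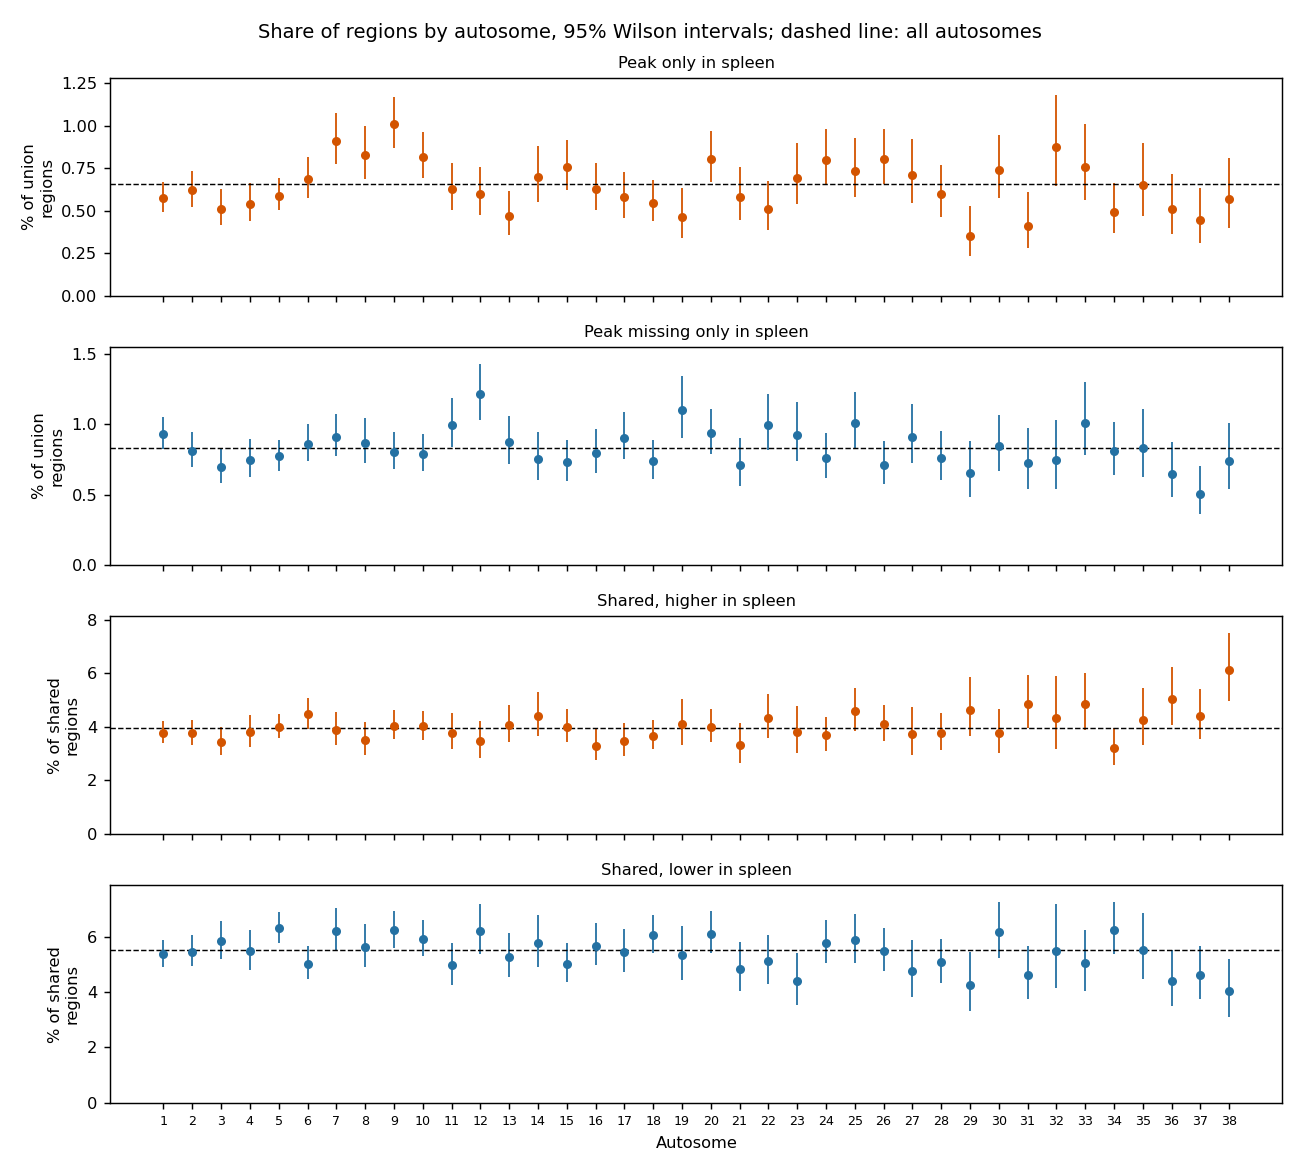
Percent of union regions (upper 2 panels) or of shared regions (lower 2 panels) in each spleen class on each of the 38 autosomes, with 95% Wilson intervals as bars and the value over all autosomes as a dashed line. Chromosome 38 is highest for higher regions (6.11%) and lowest for lower ones (4.02%).

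The distal 5 Mb of the chromosomes, measured from the last union region, differed in the same direction as chromosome 38. There 4.58% of shared regions were higher and 4.18% lower in the spleen, against 3.76% and 5.96% away from both ends. At the proximal ends the shares were 3.98% and 5.09%, closer to the overall shares (1.01 and 0.919 times). The distal share of lower regions was 0.755 times the overall share, the lowest ratio of the 11 tissues, and that of higher regions 1.16 times, the third highest. Colon had nearly the same distal ratio for lower regions, 0.770. Regions found only in the spleen were 0.512% of the union at the distal ends and 0.690% in the middle, and missing ones 0.652% and 0.876%. The spleen ranked 8 of 11 in both distal ratios (0.783 and 0.781), and regions found in 1 tissue were below their overall share at the distal ends in all 11 tissues, and missing ones in 9 of 11.

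Regions of 1 class tended to lie near others of that class. Of the regions found only in the spleen, 10.1% had another within 10 kb, where 3.50% of all union regions had 1 of them that near. The corresponding shares were 6.51% and 4.71% for missing regions, and, with shared regions as the base, 14.2% and 10.6% for higher and 18.4% and 15.3% for lower ones. Missing regions had a lower region within 10 kb in 12.4% of cases, against 10.5% of union regions, and regions found only in the spleen in 5.97%. Higher regions had one found only in the spleen near them in 4.83%, against 3.25% of shared regions. Seen from the other side there was little excess. Of the regions found only in the spleen, 7.70% had a higher region within 10 kb, against 7.48% of union regions.

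Clusters, taken as 5 or more regions of a class with neighbours at most 100 kb apart, held few of the regions found only in the spleen (130 in 22 clusters, 4.41%) or missing (42 in 8 clusters, 1.12%). They held 612 of the higher regions (89 clusters, 12.8%) and 1401 of the lower ones (203 clusters, 20.8%). Denser classes meet the fixed 100 kb limit more easily, so clustered shares are not comparable between classes or tissues with unlike numbers of regions. Median gaps in the spleen were 126980 bases for lower, 169755 for higher, 309000 for spleen-only and 356411 for missing regions. In the other tissues the clustered share ran from 0% to 76.4% for regions found in 1 tissue, from 0% to 60.6% for missing, from 0.248% to 58.6% for higher and from 9.03% to 68.1% for lower regions. The largest cluster held 12 regions found only in the spleen, where the other tissues' largest of that kind held 4 to 173 (cerebellum). For missing, higher and lower regions the largest held 6 (others 3 to 83), 17 (5 to 215) and 19 (12 to 222).

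The largest cluster found only in the spleen was chr8:60248579-60547543 (299.0 kb), with widths of 187 to 295 bases and relative folds of 0.412 to 0.971, none above the list median. The spleen had a peak in 97 of the 132 union regions of that span, a count that includes the 12 by which the span was chosen, and the other tissues in 29 (cerebellum) to 92 (ovary), with a median of 75. Ovary also had 12 regions of its own there. The next largest were at chr24:23422397-23767244 (8 regions) and chr6:8044788-8232724 (7), level with chr10:61799617-62070945 (7).

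The largest clusters of missing regions were at chr1:98610030-98789737 and chr16:27738982-27970373, with 6 each. All other clusters of this class held 5, chr1:54663029-54908734 and chr2:69331421-69556638 among them. The chr1:98610030-98789737 cluster also held 5 lower regions and chr1:98614592-98615571, one of the 10 leading missing regions, where the other folds ran from 4.50 (ovary) to 21.7 (stomach). Of higher regions, chr10:67700789-68513570 held 17, chr4:87907031-88174074 14, and chr9:1309819-1895986 and chr37:28674766-28978205 13 each. The chromosome 37 span held no lower region, and its 61 shared regions, which include the 13 by which it was chosen, had a median log2 difference of 0.28. The chromosome 10, 4 and 9 spans held 5, 3 and 7 lower regions, with median differences of 0.28, 0.29 and 0.19. Of lower regions, chr34:10267897-10767609 held 19 and chr16:19752726-20374698 and chr18:48523489-48977823 held 18 each. In these 3 spans the median differences over all shared regions were -0.10, -0.05 and -0.03.

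Runs of neighbouring regions were also counted, where each had a peak in at least 6 other tissues and none in the spleen, a definition made after values had been seen. Of 235499 regions with at least 6 other tissues the spleen lacked 32527 (13.8%), and 50 runs held 5 or more. The longest missing run had 8 regions at chr3:78081853-78353795 (271.9 kb). That span held 28 union regions and not 1 spleen peak, while the other tissues had peaks in 4 (colon and liver) to 21 (ovary) of them. The 8 regions were 296 to 623 bases wide, with median relative folds in the other tissues of 0.699 to 1.17, and only the last was present in all 10. The longest missing runs of other tissues had 6 (mammary gland) to 28 regions (cerebellum). In the opposite direction, with a spleen peak and at most 4 other tissues, the longest run had 9 regions at chr10:20068391-20090999 (22.6 kb), where other tissues' longest had 7 to 42.

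**Figure D5:**
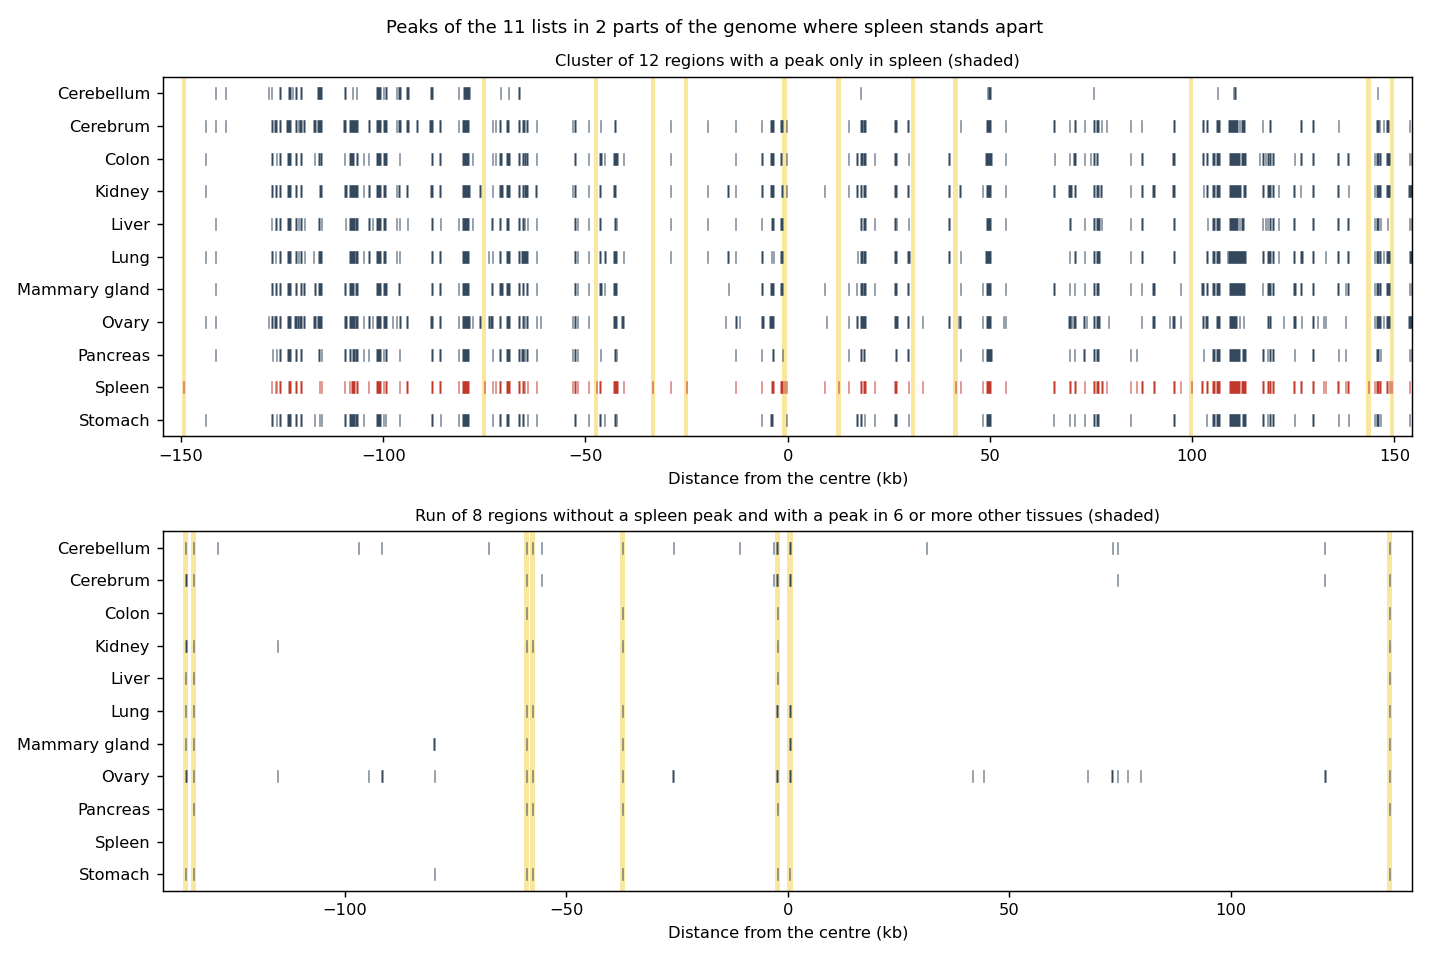
Peaks of the 11 lists, 1 row per tissue and 1 tick per peak, against the distance in kb from the centre of the span: above, the chromosome 8 cluster of 12 regions found only in the spleen, and below, the chromosome 3 run of 8 regions (both sets shaded). The spleen row (red above) is empty in the lower map, where ovary has peaks in 21 of 28 regions.

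In windows of 250 kb, also chosen after values had been seen, the highest number of missing and lower regions together was 14, at chr9:48750001-49000000 (4 missing and 10 lower, with 2 higher). Next came chr5:5750001-6000000 and chr8:67500001-67750000 with 13 each. The chromosome 8 window held 12 lower regions and a median log2 difference of -0.26 over its 59 shared regions. The highest number of higher and spleen-only regions together was also 14, at chr25:51250001-51500000 (10 higher and 4 with a peak only in the spleen). There the median difference over 50 shared regions was 0.39 and 1 region was lower. The chr4:88000001-88250000 window followed with 12 higher regions and overlapped the second largest cluster of that class. Over all 8829 windows the median was 1 missing or lower region and 0 higher or spleen-only ones, and 2470 windows held neither.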

How the data were processed

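MBD-seq peaks of 11 beagle tissues were analysed from 1 deposited list per tissue. Positions are in CanFam3.1, per the submitters' processing notes. The aligner, the peak caller, its control and filters, and the way to 1 list from 2 libraries are not given in the sources used here. Column 7 was read as the authors' fold (ratio) of a peak and column 8 as the deposited −log10 p-value. The deposited score of column 5 was not used further. Read depth is unknown.

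Autosomal peaks were merged where they shared at least 1 base. A tissue's value in a region was its highest fold there divided by its list median. A shared region was called at 1.5-fold or more from the median of the other 10 tissues and outside all 10. With 1 list per tissue, results are counts, ranks and Wilson intervals (95%). Named regions were the 10 with the largest value in each class, the median region and the 3 largest clusters. Other regions and windows named for their position were chosen after their values were seen. The classes, lists and rules were chosen with earlier results of these data known. Gene lists could not be used because annotation of this build was not used here. Alternatives changed list size, overlap, merging, scaling, fold and the tissues used. Scripts ran in Python 3.11.15 with numpy 2.4.6, pandas 2.3.3, scipy 1.17.1 and matplotlib 3.10.9. The calling rule was run on simulated lists with peaks of fixed width and planted changes larger than its threshold. That run gives no error rate for the real lists, and the fold rule has no error control.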

Additional observations from a re-analysis of the deposited data

Results flagged for a closer look

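Cerebellum lacked 13152 regions that the 10 other tissues all had, a number far above those of the other tissues beside the spleen (1414 to 4367). Its gap to the nearest was 0.748 of their whole range, above Dixon's 95% critical value for 10 samples. It was the only one so marked of 8 checks, the highest and the lowest tissue in each of 4 classes, and chance marks about 1 group in 20.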

How the results depend on the processing

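Counts moved by over 1.5 times under these settings. With the strongest 50% of each list, missing regions numbered 1310, higher 1343 and lower 2154. Against the 4 tissues of the same MBD animals and input animal there were 8687 found only in the spleen, 15217 missing, 10645 higher and 16075 lower regions, and against the 5 other lists with a shortest peak under 200 bases 8994, 7638 and 11087 of the first 3 kinds; both settings use fewer tissues, which leaves fewer values to lie outside of. A needed difference of 2-fold left 502 higher and 1918 lower regions, and a tissue counted as present at 50% cover of a region left 4440 lower ones. A setting added after seeing the data left out peaks under 218 bases and took the list medians anew. Under it 1781 regions were found only in the spleen and 2727 were higher. Leaving out 1 other tissue at a time gave 3027 to 4484 regions found only in the spleen (4484 without ovary), 4064 to 4754 missing, 4890 to 6250 higher and 6879 to 8457 lower.

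Missing regions outnumbered those found only in the spleen except with equal list sizes (3422 against 3784), the strongest 50% (1310 against 2547), the short-peak lists (7638 against 8994) and without ovary (4170 against 4484); the cause was not tested. Lower calls outnumbered higher ones under each setting but the short-peak lists. The higher share of calls was 20.7% at 2-fold and 38.4% to 46.0% under the settings other than those and the 2 on short peaks in the text above, which gave 26.9% and 52.9%. Scaling by the median over shared regions kept 92.8% of higher and 94.7% of lower regions. No paired analysis was possible because each tissue had a single list.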
